A study of Mus musculus with 3 samples.

Results

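The genes described here encode the cytosolic sensors of foreign RNA and DNA and the adaptors they signal through. They were taken by symbol from the tables of an RNA sequencing study of mouse B cells, and all 8 named symbols were found among 33605 gene symbols. The RNA sensors are Ddx58 (the RIG-I gene), Ifih1 (the MDA5 gene) and Dhx58 (the LGP2 gene), with the adaptor Mavs. Zbp1 is a sensor of Z-form nucleic acid. The DNA arm holds Mb21d1 (the cGAS gene), the adaptor Tmem173 (the STING gene) and Ifi204, a DNA-binding protein of the PYHIN family.

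There were 3 libraries of ribosome-depleted total RNA, 1 for each treatment. Splenic B cells without surface CD43, from C57BL/6 mice, were grown for 3 days with lipopolysaccharide and interleukin-4, which activate the cells and start antibody class switching. One culture received JQ1+ at 80 nM, an inhibitor that displaces BET bromodomain proteins from acetylated chromatin. One received flavopiridol at 30 nM, an inhibitor of cyclin-dependent kinases including Cdk9, which releases paused RNA polymerase. The control received DMSO, the vehicle, and the culture label of all 3 samples names DMSO. The labels do not say how many mice were used or whether the cultures shared them. With 1 library per treatment no value has a replicate, and p-values are not given.

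RIG-I and MDA5 are helicases that bind viral double-stranded RNA and pass the signal through their caspase recruitment domains to MAVS on the mitochondrial surface. LGP2 lacks these domains and tunes the other two. cGAS binds DNA and makes a cyclic dinucleotide that activates STING on the endoplasmic reticulum, and both adaptors lead through the kinase TBK1 to the transcription factor IRF3 and to type I interferon. Interferon acts back on the cell through its receptor, and several of the sensors are themselves known interferon-stimulated genes. Lipopolysaccharide is sensed at the cell surface by TLR4 and not by these cytosolic proteins.

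RPKM, reads scaled to gene length and library total, lets levels be set side by side between genes. A difference is log2((RPKM + 1)/(RPKM + 1)), and the words rose and fell are kept for a size of at least 1, which is 2-fold on that scale. Among 14790 genes with a 3-library mean of at least 1 RPKM, which all 8 genes reached, 5.29% were lower and 1.98% higher with JQ1+ (7.27% either way), and 2.88% were lower and 3.55% higher with flavopiridol (6.43% either way). The ranges given after values and ratios are 95% intervals that cover counting error only. Fewer cells that express a gene and less RNA per cell cannot be told apart in these samples.

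Promoter sequences in the RefSeq table (GRCm38.p6) were matched for 4 of the 8 genes: Ddx58, Ifih1, Mavs and Mb21d1. They are shown because Ddx58 fell with both drugs, whereas Ifih1, Mavs and Mb21d1 did not reach 2-fold with either. Each window has 250 bases before the gene's start and 30 after it, and capitals mark GAAANNGAA, the core of the interferon-stimulated response element, on either strand. The Ddx58 window is chr4:40239796-40240075, the Ifih1 window chr2:62646226-62646505 and the Mb21d1 window chr9:78443208-78443487, all on the minus strand. The Mavs window is chr2:131233813-131234092 on the plus strand.
Ddx58: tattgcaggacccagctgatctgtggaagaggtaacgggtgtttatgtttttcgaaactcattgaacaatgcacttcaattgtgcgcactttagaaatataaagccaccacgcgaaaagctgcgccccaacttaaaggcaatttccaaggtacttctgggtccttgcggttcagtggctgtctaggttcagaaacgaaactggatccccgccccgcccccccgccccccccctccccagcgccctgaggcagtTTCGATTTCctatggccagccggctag
Ifih1: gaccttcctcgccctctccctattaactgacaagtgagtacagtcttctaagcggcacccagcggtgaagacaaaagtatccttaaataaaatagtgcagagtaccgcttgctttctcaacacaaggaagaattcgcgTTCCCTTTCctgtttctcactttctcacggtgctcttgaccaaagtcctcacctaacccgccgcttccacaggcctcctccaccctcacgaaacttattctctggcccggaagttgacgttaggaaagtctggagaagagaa
Mavs: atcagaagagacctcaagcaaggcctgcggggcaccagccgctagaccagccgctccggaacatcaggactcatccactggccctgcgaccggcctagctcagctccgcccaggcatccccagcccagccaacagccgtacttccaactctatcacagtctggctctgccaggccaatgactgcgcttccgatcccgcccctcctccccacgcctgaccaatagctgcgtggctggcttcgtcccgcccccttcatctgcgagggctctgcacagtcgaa
Mb21d1: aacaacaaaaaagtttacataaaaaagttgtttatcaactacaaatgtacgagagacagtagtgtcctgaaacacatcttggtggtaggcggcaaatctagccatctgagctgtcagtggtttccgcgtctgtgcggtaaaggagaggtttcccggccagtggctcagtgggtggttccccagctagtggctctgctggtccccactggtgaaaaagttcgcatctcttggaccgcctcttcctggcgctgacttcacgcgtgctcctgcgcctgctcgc

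The core was found in 2 of these 4 promoters, Ddx58 and Ifih1, and in 8.56% of all 32851 promoter windows in the table, searched over 300 bases with both strands read. In Ddx58 it lies on the opposite strand at bases 254 to 262 of the window, just after the start. In Ifih1 one match lies on the opposite strand at bases 139 to 147, and another, on the strand of the gene, at bases 283 to 291, past the stretch shown. With only the strand of the gene read, 1 of the 4 promoters, that of Ifih1, held the core. TTCNNNGAA, the core of the gamma-activated sequence of interferon-gamma target genes, was in none of the 4 and in 8.30% of all windows. A match is a run of letters and not a measured binding site.

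Library depth and markers of other cell types were compared first. Counts summed to 51247080 with JQ1+, 50184508 with flavopiridol and 59786847 with DMSO. All 7 B cell markers were above 1 RPKM in each library, and they summed to 4891 RPKM with JQ1+, 4045 with flavopiridol and 4060 with DMSO. The 9 dendritic cell markers summed to 11.3 RPKM with JQ1+, 37.1 with flavopiridol and 91.0 with DMSO. Tmem173, Zbp1, Dhx58, Irf7 and several other genes named below had the same order, and Ddx58, Ifih1, Mavs, Mb21d1 and Ifi204 did not. Most of the dendritic cell sum with DMSO was Batf3 and Flt3, and Itgax, Clec9a, Siglech and Cd209a were at 0.096 RPKM or less in each library. Zbtb46 was at 4.36 RPKM with JQ1+, 6.85 with flavopiridol and 6.63 with DMSO. Xcr1 was at 0.763 RPKM with JQ1+, 2.59 with flavopiridol and 0.918 with DMSO. Ccr9 was at 0.544 RPKM with JQ1+, 1.99 with flavopiridol and 0.871 with DMSO. Pecam1, at 5.18 RPKM with JQ1+, 11.9 with flavopiridol and 21.7 with DMSO, made up most of the stromal sum of 5.69 with JQ1+, 12.4 with flavopiridol and 22.8 with DMSO. Of 7 T cell markers only Thy1 was high, at 160.7 RPKM with JQ1+, 196.2 with flavopiridol and 267.6 with DMSO. The others were at 1.10 RPKM or less in each library, the highest being Cd5 with flavopiridol. Cd3d was at 0.862 RPKM with JQ1+, 0.506 with flavopiridol and 0.359 with DMSO, and Cd3e was at 0.066 RPKM or less. The 12 myeloid markers summed to 20.1 RPKM with JQ1+, 33.8 with flavopiridol and 28.4 with DMSO, with S100a8, S100a9, Ly6g and Cd300e at 0. Lyz2 had 48 counts and 1.94 RPKM with JQ1+, 1 count and 0.044 RPKM with flavopiridol, and 5 counts and 0.181 RPKM with DMSO. Cd68 was at 12.5 RPKM with JQ1+, 19.7 with flavopiridol and 20.5 with DMSO, and Csf1r was at 4.03 RPKM with JQ1+, 3.95 with flavopiridol and 6.41 with DMSO. Emr1, the macrophage marker F4/80, rose with flavopiridol to 9.47 RPKM, against 0.922 with DMSO, and was at 0.801 RPKM with JQ1+. Natural killer sums lay between 2.04 and 3.27 RPKM and erythroid sums between 2.05 and 2.63. The part of cells that express Batf3, Flt3, Zbtb46, Xcr1, Ccr9, Pecam1, Thy1, Emr1, Cd68, Csf1r or Lyz2 in the results below was not tested.

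The adaptor Tmem173 stood far above the sensors in all 3 libraries, and Mb21d1, its upstream enzyme, was last. With JQ1+ the levels ran Tmem173 at 78.1 RPKM, Ifih1 at 27.8, Ddx58 at 22.1, Mavs at 22.0, Dhx58 at 11.5, Zbp1 at 11.2, Ifi204 at 3.09 and Mb21d1 at 0.424. With flavopiridol they ran Tmem173 at 151.0 RPKM, Mavs at 37.1, Ifih1 at 27.0, Ddx58 at 19.5, Zbp1 at 13.7, Dhx58 at 13.1, Ifi204 at 2.03 and Mb21d1 at 1.44. With DMSO they ran Tmem173 at 226.7 RPKM, Zbp1 at 83.9, Dhx58 at 67.7, Ddx58 at 59.6, Ifih1 at 41.7, Mavs at 26.7, Ifi204 at 18.3 and Mb21d1 at 1.26.

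The order of the sensors therefore differed between the drug libraries and DMSO. Mavs ranked 4 of 8 with JQ1+, 2 of 8 with flavopiridol and 6 of 8 with DMSO, while Zbp1 ranked 6 with JQ1+, 5 with flavopiridol and 2 with DMSO. The counting intervals of Ddx58 and Mavs and those of Dhx58 and Zbp1 overlapped with JQ1+, as did those of Zbp1 and Dhx58 and those of Ifi204 and Mb21d1 with flavopiridol. No intervals of neighbours in the order overlapped with DMSO.

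**Figure D1:**
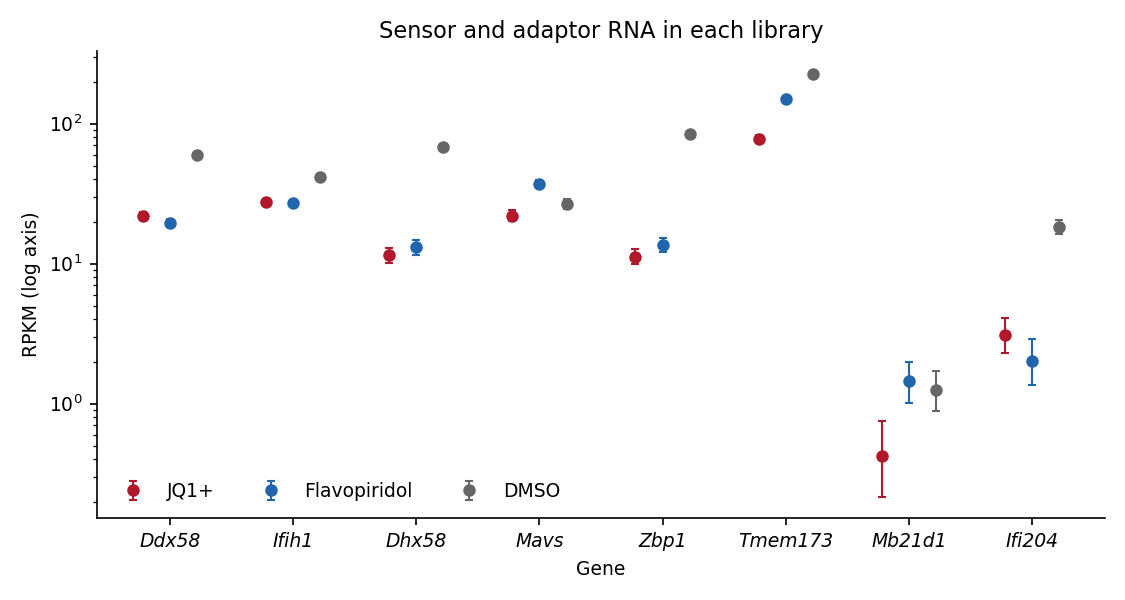
RPKM (log axis) of the 8 genes in the JQ1+, flavopiridol and DMSO libraries, 1 library each, with 95% counting intervals. Ddx58, Dhx58, Zbp1 and Ifi204 lie lower in both drug libraries than in DMSO, Tmem173 is at 78.1 in JQ1+, 151.0 in flavopiridol and 226.7 in DMSO, and Mavs stays between 22.0 and 37.1.

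JQ1+ was set against DMSO first. Of the 8 genes, 5 fell (Ddx58, Dhx58, Zbp1, Tmem173 and Ifi204), none rose, and the median difference was -1.46, beside -0.08 over all genes tested. The share of all genes tested that fell was 5.29%. The 3 that stayed within 2-fold were Ifih1, Mavs and Mb21d1.

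Flavopiridol was then set against the same DMSO library, so both comparisons share their control. Here 4 of the 8 fell, Ddx58, Dhx58, Zbp1 and Ifi204, and none rose, where 2.88% of all genes fell. The median difference was -1.09, beside 0.13 over all genes tested. Over all genes the balance of falls and rises depended on scaling: of the genes past 2-fold, 44.8% were lower with flavopiridol on the deposited scale and 58.2% once libraries were rescaled by the median of ratios.

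**Figure D2:**
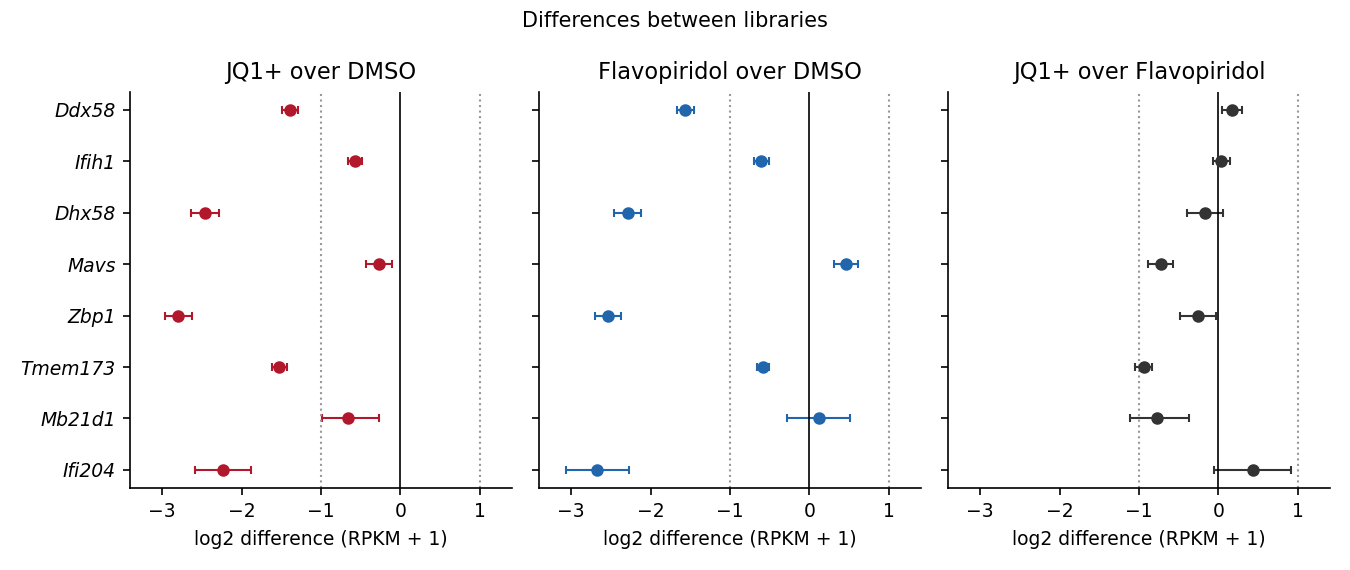
Differences on the log2(RPKM + 1) scale for the 8 genes, in JQ1+ over DMSO, flavopiridol over DMSO and JQ1+ over flavopiridol, with 95% counting intervals and dotted lines at 2-fold. Zbp1, Dhx58, Ifi204 and Ddx58 lie past the line on the left in both comparisons with DMSO, Tmem173 lies past it with JQ1+ at -1.53 and not with flavopiridol at -0.58, and no gene lies past a line between the drugs.

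The RNA helicase sensors moved by unequal amounts. Ddx58, which detects short 5′-triphosphate RNA, was at 22.1 RPKM with JQ1+ and 59.6 with DMSO, 2.70-fold lower (2.52 to 2.90). It was at 19.5 RPKM with flavopiridol, 3.05-fold lower than with DMSO (2.83 to 3.30). The drug libraries lay close together for this gene, and both lay well under DMSO.

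Ifih1, which detects long double-stranded RNA, was at 27.8 RPKM with JQ1+, 27.0 with flavopiridol and 41.7 with DMSO. Its differences of -0.57 with JQ1+ and -0.61 with flavopiridol did not reach 2-fold, although the ratio to DMSO was below 1 by more than counting error in both. That ratio was 0.665 (0.624 to 0.709) with JQ1+ and 0.648 (0.606 to 0.693) with flavopiridol. Ifih1 thus had the highest level of the 3 helicases in both drug libraries and the lowest of the 3 in DMSO.

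Dhx58, the regulator of the other helicases, showed the largest fall of the 3 helicases with each drug. It was at 11.5 RPKM with JQ1+ and 67.7 with DMSO, 5.89-fold lower (5.17 to 6.73). With flavopiridol it was at 13.1 RPKM, 5.18-fold lower than with DMSO (4.56 to 5.90). Only 89 of 14790 genes had a lower difference than Dhx58 with JQ1+, and 42 with flavopiridol. An antisense gene, Dhx58os, overlaps Dhx58 and was at 1.88 RPKM with JQ1+, 2.03 with flavopiridol and 10.5 with DMSO, which is 16.4%, 15.5% and 15.6% of the Dhx58 value. The use of strand in counting is not given in the sources used here, so reads of this pair cannot be told apart where they overlap.

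Mavs, the adaptor shared by RIG-I and MDA5, stayed within 2-fold with both drugs, as did Ifih1, whereas Ddx58 fell. It was at 22.0 RPKM with JQ1+ and 26.7 with DMSO, a difference of -0.27. With flavopiridol it was at 37.1 RPKM, a difference of 0.46. As ratios to DMSO these were 0.823 (0.730 to 0.926) with JQ1+ and 1.39 (1.25 to 1.54) with flavopiridol, which lie on opposite sides of 1. Set against the adaptor in the same library, Ddx58 RNA was 1.004 times the Mavs value with JQ1+, 0.526 times with flavopiridol and 2.23 times with DMSO.

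Zbp1, which binds Z-form RNA and DNA and can start necroptosis, had the largest fall of the 8 genes with JQ1+. It was at 11.2 RPKM with JQ1+ and 83.9 with DMSO, 7.46-fold lower (6.57 to 8.51). This range overlapped those of Ifi204 (4.36 to 8.15) and Dhx58 (5.17 to 6.73) with JQ1+. With flavopiridol Zbp1 was at 13.7 RPKM, 6.15-fold lower than with DMSO (5.44 to 6.97). A lower difference than that of Zbp1 was found in 59 of 14790 genes with JQ1+ and 32 with flavopiridol. Zbp1 stood above 40.0% of the genes tested with JQ1+ and 40.9% with flavopiridol, against 83.2% with DMSO.

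In the DNA-sensing arm Tmem173 differed between the drugs. Its RNA fell to 78.1 RPKM with JQ1+, against 226.7 with DMSO, 2.90-fold lower (2.72 to 3.10). With flavopiridol it was at 151.0 RPKM, 0.666 times the DMSO level (0.631 to 0.702), a difference of -0.58 that did not reach 2-fold. The 3 libraries thus lay at separate levels, and Tmem173 was the highest of the 8 genes in each.

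Mb21d1, the enzyme upstream of STING, was near the lower limit of the genes tested. It had 33 counts and 0.424 RPKM with JQ1+ (0.217 to 0.746), 102 counts and 1.44 RPKM with flavopiridol (1.01 to 1.99), and 109 counts and 1.26 RPKM with DMSO (0.891 to 1.72). The difference with JQ1+ was -0.66 and did not reach 2-fold with the pseudocount of 1, whereas the plain ratio was 2.96-fold lower (1.51 to 6.27); with a pseudocount of 0.1 the difference was -1.37. With flavopiridol the ratio to DMSO was 1.15 (0.708 to 1.86), an interval that includes 1. The gene Gm8093 overlaps Mb21d1 on the opposite strand and was at 0.120 RPKM with JQ1+, 0.423 with flavopiridol and 0.129 with DMSO.

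Ifi204 fell with both drugs to a few RPKM. It had 138 counts and 3.09 RPKM with JQ1+, 82 counts and 2.03 RPKM with flavopiridol, and 910 counts and 18.3 RPKM with DMSO. It was 5.92-fold lower with JQ1+ (4.36 to 8.15) and 9.01-fold lower with flavopiridol (6.18 to 13.7), the largest fall of the 8 genes with flavopiridol. The flavopiridol range overlapped that of Zbp1 (5.44 to 6.97), so counting error leaves the order of these 2 genes unsettled. Of 14790 genes, 26 had a lower difference than Ifi204 with flavopiridol. In the transcripts of GENCODE M21, 20.0% of the distinct 50-base runs of Ifi204 are also found in another gene, most often Ifi211, so the split of its reads among family members is uncertain. The same share was 2.90% for Dhx58, 4.68% for Mb21d1 and 0.393% for Ddx58, and no 50-base run was shared for Ifih1, Mavs, Zbp1 or Tmem173.

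JQ1+ was also set against flavopiridol, at doses that differ. None of the 8 genes passed 2-fold in either direction, where 6.87% of all genes were lower in JQ1+ and 2.06% higher (8.92% either way). Of the genes past 2-fold, 77.0% were lower in JQ1+ on the deposited scale, and 57.3% once libraries were rescaled by the median of ratios. The median difference of the 8 genes was -0.22, and that of all genes tested was -0.21. Tmem173 came closest to the line, with a difference of -0.94 and a level 1.93-fold lower in JQ1+ (1.80 to 2.08). Mavs in JQ1+ was at 0.592 times its flavopiridol level (0.528 to 0.664). Mb21d1 had a plain ratio 3.40-fold lower in JQ1+ (1.72 to 7.23) but a difference of -0.78 on the scale with the pseudocount.

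For the other genes the drugs lay nearer to each other. The JQ1+ to flavopiridol ratio was 1.03 for Ifih1 (0.953 to 1.11), 0.880 for Dhx58 (0.740 to 1.04) and 1.52 for Ifi204 (0.949 to 2.52), intervals that include 1. It was 1.13 for Ddx58 (1.03 to 1.24) and 0.824 for Zbp1 (0.695 to 0.976). The interval of Ifi204 also includes a 2-fold difference, so its 82 to 138 counts leave its order between the drugs unsettled.

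The partners of these sensors were followed in 7 lists with 101 genes, of which 92 were measured. With JQ1+ 19 of the 92 fell and none rose, where 5.29% of all genes tested fell and 1.98% rose. With flavopiridol 12 fell and none rose, where 2.88% of all genes tested fell and 3.55% rose. The same shares stand beside the list counts below. The list medians lay between -0.90 and 0.02 with JQ1+ and between -1.09 and 0.17 with flavopiridol, beside -0.08 and 0.13 over all genes. The falls were spread unevenly over the lists, as the following groups show.

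**Figure D3:**
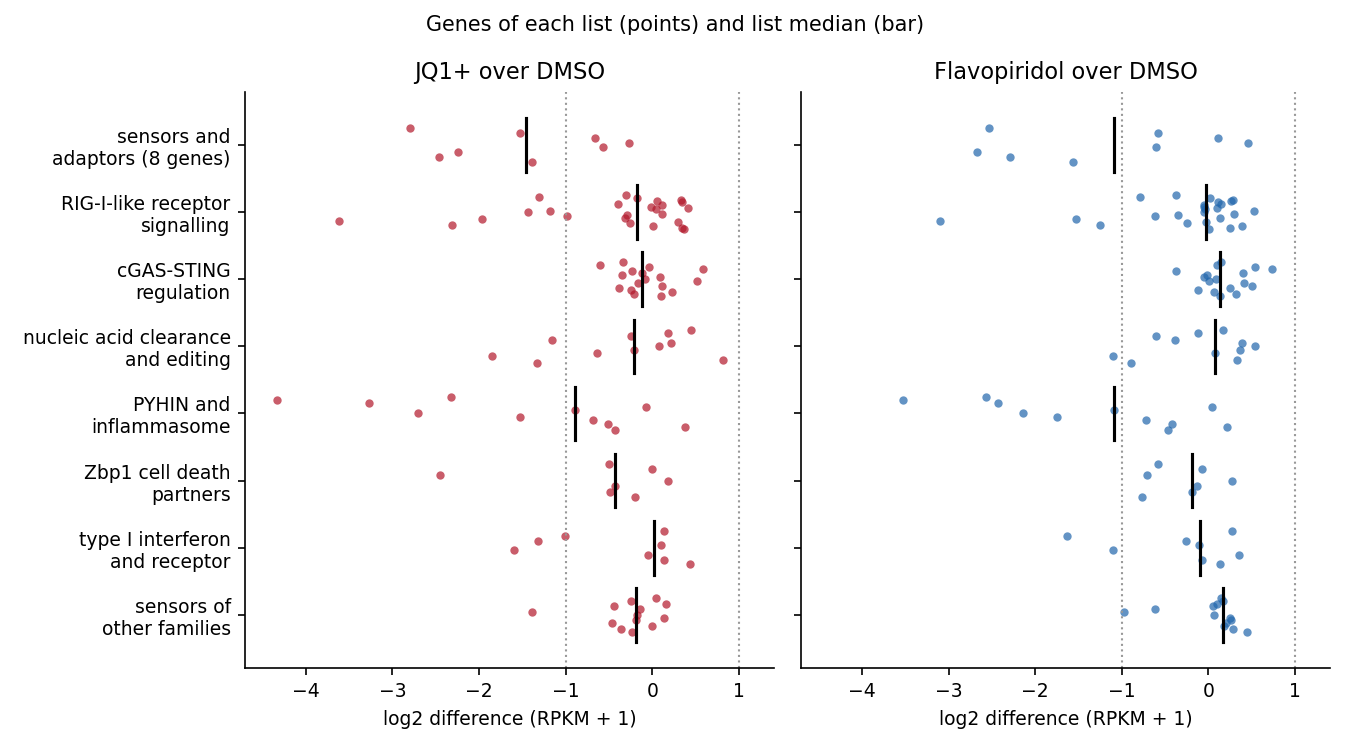
Differences on the log2(RPKM + 1) scale for each measured gene of the sensor group and of the 7 partner lists, in JQ1+ over DMSO (left) and flavopiridol over DMSO (right), with list medians as bars and dotted lines at 2-fold. The sensor group and the PYHIN list have medians near or past the 2-fold line, and the other lists have medians between -0.43 and 0.17. Some of those other lists hold single genes far to the left, and no gene of the cGAS-STING list lies past a line with either drug.

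In RIG-I-like receptor signalling 6 of 25 measured genes fell with JQ1+ and 3 with flavopiridol. Irf7, the factor that amplifies interferon production, fell to 8.87 RPKM with JQ1+ and 13.0 with flavopiridol, against 119.7 with DMSO. Isg15, a ubiquitin-like modifier, fell with differences of -1.97 with JQ1+ and -1.53 with flavopiridol, and so did the helicase Ddx60 (-2.32 and -1.25). Trim25, the ubiquitin ligase that activates RIG-I in human cells, fell with JQ1+ (-1.31) and stood at -0.79 with flavopiridol. Prkra, a partner of the kinase PKR, fell with JQ1+ from few counts (-1.43) and stood at -0.05 with flavopiridol. Rnf125, a ubiquitin ligase, fell with JQ1+ to 7 counts, against 58 with DMSO (-1.19), and stood at 0.52 with flavopiridol, with 79 counts. With a minimum mean of 5 RPKM, which drops the low genes, 3 of 21 fell with JQ1+.

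The kinase and factor at the end of both arms stayed within 2-fold of DMSO with each drug. Tbk1 was at 108.2 RPKM with JQ1+, 97.0 with flavopiridol and 100.5 with DMSO. Irf3 was at 68.0 RPKM with JQ1+, 54.3 with flavopiridol and 55.2 with DMSO. The adaptor-binding ligase Traf3 was at 27.0 RPKM with JQ1+, 26.2 with flavopiridol and 21.4 with DMSO. Their differences from DMSO lay between -0.05 and 0.33.

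No gene of the cGAS-STING regulation list passed 2-fold with either drug, among 17 measured. Over all genes tested the share past 2-fold either way was also small, 7.27% with JQ1+ and 6.43% with flavopiridol. Xrcc5, the Ku80 gene of DNA end joining, had the largest difference in this list with flavopiridol (0.73) and stood at 0.58 with JQ1+. Zcchc3, a co-sensor of cGAS, had differences of -0.60 with JQ1+ and 0.09 with flavopiridol.

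Genes that clear or edit nucleic acid moved in part. Of 11 measured, 3 fell with JQ1+ and 1 with flavopiridol. Eif2ak2, the double-stranded RNA kinase PKR, fell with both (-1.85 with JQ1+ and -1.10 with flavopiridol). Adar, which edits adenosine in double-stranded RNA, fell with JQ1+ (-1.34) and stood at -0.89 with flavopiridol. Trex1, the exonuclease that removes cytosolic DNA, was at 121.9 RPKM with JQ1+, 100.4 with flavopiridol and 89.3 with DMSO, and Dnase2a, the lysosomal nuclease, had a difference of 0.81 with JQ1+.

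The PYHIN family, to which Ifi204 belongs, held the lowest single difference of the 7 lists with each drug, that of Pydc4 (-4.33 with JQ1+ and -3.52 with flavopiridol). Of 11 measured genes of the PYHIN and inflammasome list, 5 fell with JQ1+ and 6 with flavopiridol, and the medians were -0.90 and -1.09. Pydc4 fell to 0.380 RPKM with JQ1+ and 1.41 with flavopiridol, against 26.7 with DMSO. Pyhin1 fell to 20.2 RPKM with JQ1+ and 17.0 with flavopiridol, against 105.4 with DMSO. Pydc3, Mnda and Ifi205 also fell with both drugs, and Mndal fell with flavopiridol (-1.09) and stood at -0.90 with JQ1+. The share of distinct 50-base runs found in another gene was 72.8% for Mnda, 33.7% for Pyhin1, 20.9% for Pydc3, 19.6% for Mndal, 18.6% for Ifi205 and 15.6% for Pydc4. The values and folds of all 6 are therefore uncertain in the same way as those of Ifi204.

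Aim2, the DNA sensor that assembles an inflammasome, was within 2-fold at 34.7 RPKM with JQ1+, 33.6 with flavopiridol and 47.0 with DMSO. Its partners Pycard (-0.08 with JQ1+ and 0.04 with flavopiridol) and Casp1 (0.37 and 0.21) were within 2-fold too. Ifi202b was at 0.066 RPKM or less in each library. The family thus ranged from Pydc4, 70.4-fold lower with JQ1+ (38.8 to 144), to Aim2, 1.35-fold lower (1.24 to 1.48), among its members measured.

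**Figure D4:**
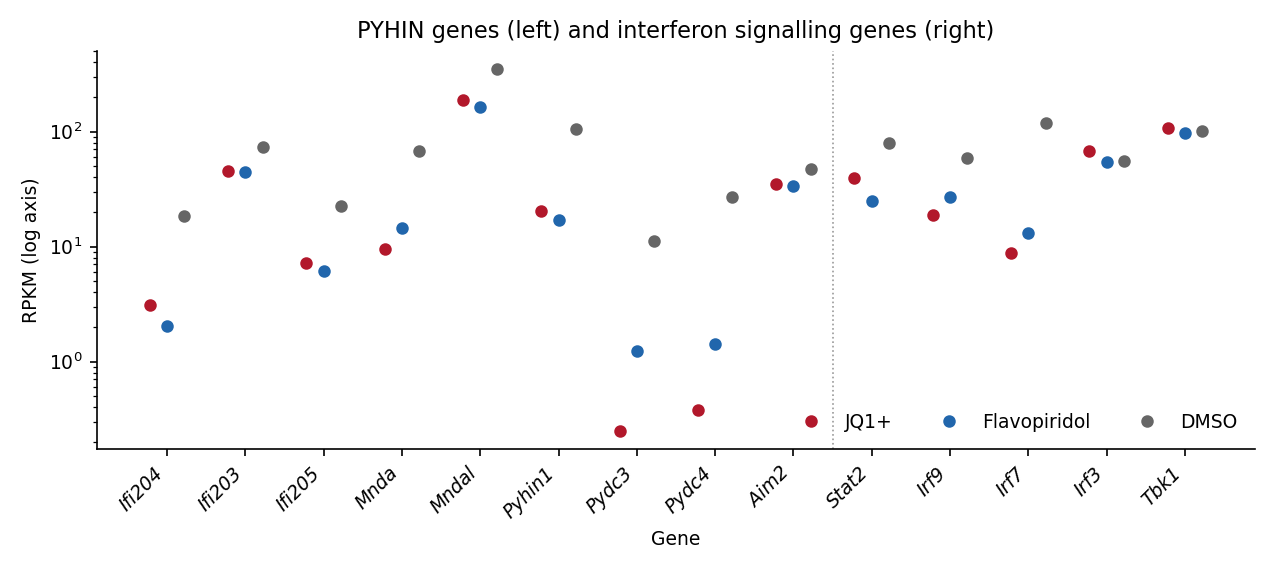
RPKM (log axis) of Ifi204 and 8 further PYHIN genes (left of the dotted line) and of 5 interferon signalling genes (right) in the JQ1+, flavopiridol and DMSO libraries, 1 library each. Pydc4 is at 0.380 in JQ1+, 1.41 in flavopiridol and 26.7 in DMSO, Irf7 is at 8.87 in JQ1+, 13.0 in flavopiridol and 119.7 in DMSO, and Irf3 and Tbk1 differ little.

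Among the partners of Zbp1 in cell death, Mlkl, the executioner of necroptosis, fell with JQ1+ to 7.74 RPKM, against 46.9 with DMSO, 6.06-fold lower (4.99 to 7.40). With flavopiridol it was at 28.2 RPKM and within 2-fold. Between the drugs Mlkl was 3.65-fold lower in JQ1+ (2.96 to 4.52). The other 6 genes of this list were within 2-fold with each drug, among them the kinases Ripk1 (0.00 with JQ1+ and -0.07 with flavopiridol) and Ripk3 (-0.50 and -0.58).

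Of the interferon genes at the output of these sensors, Ifnk had 21 counts and 1.38 RPKM with JQ1+, 30 counts and 2.17 RPKM with flavopiridol, and 25 counts and 1.48 RPKM with DMSO, and was within 2-fold. The others in the tables were barely detected. Ifnb1 had 0 counts with JQ1+, 2 with flavopiridol and 1 with DMSO, Ifna2 had 0 counts in both drug libraries and 2 with DMSO, and Ifna4 and Ifne had 0 in all 3. A count of 0 allows up to 3 counts, which is 0.0585 CPM, counts scaled to the library's count sum, with JQ1+, 0.0598 with flavopiridol and 0.0502 with DMSO, so no difference of these 4 genes was detectable at this depth. The receptor genes Ifnar1 (0.44 with JQ1+ and 0.13 with flavopiridol) and Ifnar2 (0.13 and -0.08) were within 2-fold. Of the factors that act on interferon-stimulated genes, Irf9 fell with both drugs (-1.60 with JQ1+ and -1.11 with flavopiridol), and so did Stat2 (-1.01 and -1.63). The Stat2 call with JQ1+ lay at the threshold and was lost under both rescalings, in CPM and with a pseudocount of 5. Between the drugs Stat2 was 1.56 times as high in JQ1+ (1.42 to 1.72).

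Sensors of other families were mostly within 2-fold, as were most genes tested. Of 13 measured, Nlrc5, which drives MHC class I genes, fell with JQ1+ (-1.38) and stood at -0.98 with flavopiridol. The helicases Dhx9, Dhx15, Dhx33, Dhx36, Ddx1 and Ddx21 had differences between -0.46 and 0.13 with JQ1+ and between 0.18 and 0.44 with flavopiridol.

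The interferon element core was also counted in the promoters of the partner genes. A promoter was matched for 81 measured partners, and 18 held the core, 22.2%, beside 8.64% of 8688 measured genes with a promoter. It was in 10 of the 15 partners that fell with JQ1+ and in 8 of the 66 that did not. With flavopiridol it was in 9 of the 12 that fell and in 9 of the 69 that did not. These lists hold known interferon-stimulated genes and were chosen with results of these data known, so the counts are a description.

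The genes most like each sensor were sought by distance over the pair of log2 differences from DMSO, over 3 libraries, among protein-coding genes that averaged 5 RPKM or more. The nearest to Ddx58 were Herc6 (distance 0.12), Helz2 (0.13) and Gpsm3 (0.17). The nearest to Ifi204 were Pyhin1 (0.14), H2-M5 (0.42) and Dhx58 (0.44). Dhx58 lay nearest to Tgtp2 (0.20), Aldoc (0.21) and Ifi47 (0.22), and Zbp1 to H2-M5 (0.21), Neil1 (0.21) and Tgtp2 (0.32).

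The other 4 sensors and adaptors had closer neighbours. Closeness depends on how many genes have similar differences, and most genes tested were within 2-fold of DMSO. Tmem173 lay nearest to Eif4ebp1 (distance 0.020), Serpina3f (0.046) and Dusp5 (0.097). Ifih1 lay nearest to Rabep2 (0.013), Cmip (0.018) and Aldh2 (0.029), and Mavs to Rbm17 (0.011), Acad9 (0.011) and Chmp3 (0.012). Mb21d1 lay nearest to Txndc15 (0.016), Atpif1 (0.020) and Gpr146 (0.023). The pseudocount shrinks the differences of Mb21d1, which by plain RPKM was 2.96-fold lower with JQ1+ than with DMSO. Txndc15, its nearest gene, was at 21.9 RPKM with JQ1+ and 35.7 with DMSO, so the match holds only on the pseudocount scale. Among the 8 genes the closest pair was Dhx58 and Zbp1 (0.42).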

How the data were processed

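Total RNA of 3 cultures was extracted with Trizol, depleted of ribosomal RNA with Ribo-Zero and sequenced, per the labels' protocols. The deposited counts are whole numbers with no scaling, per the file headers. The deposited RPKM values are relative to gene length and library size, per the file headers. The build was mm9, per the submitters' processing notes. No source used here names an aligner, a counting program, an annotation or how strand was treated. Between 148 and 164 genes per library have a count of 0 with an RPKM above 0.

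The library total behind RPKM was worked out with exon lengths of GENCODE M21. Counts summed to 2.72 (JQ1+), 2.92 (flavopiridol) and 2.84 (DMSO) times that total, so counts were divided by 2.83 for exact conditional binomial and exact Poisson 95% intervals, which cover counting error only. The floor of 3 counts uses undivided counts and is too low where reads were counted more than once.

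For 94 symbols that had more than 1 row, only the row of highest mean entered. With 1 library per group no count model was fitted. Genes named are the 8 sensors, up to 4 genes per list and comparison with the largest difference, a few fixed genes, and the 3 nearest genes per sensor; other genes were named after their values were seen. Members and lists were chosen with earlier results of these data known. Ifna1, Ifna5 and Hbb-b1 were not matched by symbol. The planned comparison of protein sequences was replaced, after the data were seen, by shared 50-base runs, read on both strands. The calculations were tested on simulated data; Python 3.11.15, numpy 2.4.6, pandas 2.3.3 and scipy 1.17.1 were used. Some genes that the rule names are not reported here.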

Additional observations from a re-analysis of the deposited data

How the results depend on the processing

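The 10 alternatives were other pseudocounts (0.1 and 5), no minimum, a minimum of 5 RPKM, both rescalings, CPM, a 1.5-fold threshold, protein-coding genes only, and the counting interval added to the 2-fold rule. The genes that fell with JQ1+ numbered 5 or 6 of 8 and those that fell with flavopiridol 4 or 5 under all of them, and no sensor that passed 2-fold lost its call. Between the drugs 1 gene, Mb21d1, was lower in JQ1+ with a pseudocount of 0.1, and 3 were past 1.5-fold, where none passed by the rule used. The flavopiridol median was -0.98 with a pseudocount of 5, -1.56 with a minimum of 5 RPKM, which leaves out Mb21d1, and -1.22 after rescaling by the median of ratios; that rescaling moved the median of all genes by -0.13 and, between the drugs, by 0.21, where the median of the 8 genes became 0.0015. Among the partners the 1.5-fold threshold gave 1 higher with JQ1+, 21 lower and 1 higher with flavopiridol, and 15 lower and 1 higher between the drugs. The 5 partners lower in JQ1+ than in flavopiridol became 2 with a pseudocount of 5 or a minimum of 5 RPKM and 3 with either rescaling. After rescaling by the median of ratios 2 clearance genes fell with flavopiridol in place of 1. Nlrc5 fell with flavopiridol under both rescalings and in CPM. With only the strand of the gene read, 1 of 4 promoters held the interferon core. The cause of these changes was not tested, other than by how each alternative is built. No paired analysis was possible because each treatment has 1 library. Depth limits Mb21d1, Ifi204 and the interferon genes, and no library could be left out.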
